A study of Homo sapiens with 24 samples.

Results

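Chromosome 12 carries genes of many unrelated functions, and 59 of them, spread along both of its arms, were chosen by their differences from Ramos, because the chromosome as a whole had stood above the rest of the genome in every doxorubicin-resistant derivative of the Ramos cell line. Of the 59 listed genes 57 were measured, 11 on the short (p) arm and 46 on the long (q) arm, among 532 measured genes of the chromosome and 9533 of the genome. The other 2 were not analysed here. Ramos is a human Burkitt lymphoma line of B cell origin and was grown without drug. Dox100 was raised from Ramos, Dox250 from Dox100, Dox500 from Dox250, Dox750 from Dox500 and Dox1000 from Dox750, and each grew with doxorubicin at the concentration in its name, which was 100, 250, 500, 750 and 1000 nM. All lines shared the same RPMI medium with fetal bovine serum, and each was measured on 4 Illumina bead arrays. A single culture of each line was divided into 4, so the spread behind every p-value is that between sister cultures and may be technical, and each resistant line is 1 selection. Because every line is bulk RNA, a change in all cells and a change in a share of the cells cannot be told apart. The choice rested on the contrasts with Ramos, which all share the same 4 Ramos arrays, so those values, and the limma calls counted among them, are given as a description that supports nothing. Contrasts between resistant lines were not used in the choice and were tested.

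The listed genes were grouped by their chromosome, and a regulator common to them was not tested. As background, RNA levels broadly follow the number of gene copies in a cell, and single genes can depart from it through their own regulation. Gene copy number was not measured here. Many chromosome 12 genes code for subunits of complexes whose other subunits lie on other chromosomes, so the list also allows subunits of 1 complex to be set side by side.

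The promoters of 3 genes are shown because they belong to the highest, the middle and the lowest of the 57 in Dox1000 minus Ramos. They are the 250 bases before the start of CDKN1B (inhibitor of cyclin-dependent kinases, p27), of NAP1L1 (a histone chaperone) and of APOLD1 (an apolipoprotein L domain protein), from RefSeq on GRCh38.p14, each 5′ to 3′ on the gene's own strand. They lie at chr12:12717118-12717367 on the plus strand, chr12:76084686-76084935 on the minus strand and chr12:12725667-12725916 on the plus strand. Capitals mark CCAAT and GGGCGG, or their reverse complements ATTGG and CCGCCC.
CDKN1B: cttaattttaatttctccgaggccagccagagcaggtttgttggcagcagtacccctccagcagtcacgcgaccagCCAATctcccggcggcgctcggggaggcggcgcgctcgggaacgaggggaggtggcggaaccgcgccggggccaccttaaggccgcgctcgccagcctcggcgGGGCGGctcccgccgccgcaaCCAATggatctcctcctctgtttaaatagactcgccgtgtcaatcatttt
NAP1L1: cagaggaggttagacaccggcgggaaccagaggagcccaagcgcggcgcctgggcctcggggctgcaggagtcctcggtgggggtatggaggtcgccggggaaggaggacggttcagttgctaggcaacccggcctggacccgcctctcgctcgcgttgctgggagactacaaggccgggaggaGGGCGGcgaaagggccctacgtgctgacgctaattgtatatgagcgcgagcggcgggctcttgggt
APOLD1: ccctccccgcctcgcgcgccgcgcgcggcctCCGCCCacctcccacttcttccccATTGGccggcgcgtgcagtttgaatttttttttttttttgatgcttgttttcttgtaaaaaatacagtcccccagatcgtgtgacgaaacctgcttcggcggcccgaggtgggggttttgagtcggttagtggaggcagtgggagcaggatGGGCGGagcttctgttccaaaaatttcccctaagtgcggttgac
CDKN1B and APOLD1 are consecutive among the measured genes of the p arm, and both promoters hold CCAAT and GGGCGG. CDKN1B had the highest measured difference of all 57 and APOLD1 the lowest, but APOLD1 was detected on only 1 of 4 Dox1000 arrays, so its size and rank are not firm. The middle place of NAP1L1 rests on the probe read, and its second probe gave 0.09 in Dox1000 minus Ramos. Of the measured members 51 matched a RefSeq promoter. CCAAT on either strand was found in 19 of them (37.3%), GGGCGG in 39 (76.5%) and CACGTG, the core of the E-box that MYC binds, in 3 (5.88%), which were CCNT1, PWP1 and SPRYD4. The shares over 7796 promoters of measured genes were 36.8%, 67.2% and 9.39%, and over the 376 of other measured chromosome 12 genes they were 37.8%, 68.9% and 11.97%. The members' median GC content was 64.0%, against 64.8% for measured genes. These letters describe the window only, and none of the 3 patterns overlaps another.

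Median signal ran from 121.1 to 163.4 per array, 14158 to 15564 of 47323 probes were detected per array, and arrays of a line correlated at 0.988 to 0.994 across probes. Of 5 B cell markers with a probe CD79A, CD79B, CD22 and MS4A1 were detected on all 24 arrays and PAX5 on none. Of the markers of other cell types CD3E was detected on all 4 Dox100 arrays, NKG7 on all 4 of Dox500 and Dox1000, and DCN on all 4 of Dox500, Dox750 and Dox1000, while none was detected in Ramos. Their part in the results below was not tested. All values below are log2 levels after background correction and quantile normalization, or differences of line means ± SE from limma (n = 4 per line).

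As a group, the chromosome 12 genes stood 1.36 to 1.38 times, at the median, above Ramos from the first resistant line on. The median difference of the 57 genes from Ramos was 0.46 in Dox100, 0.45 in Dox250, 0.44 in Dox500, 0.44 in Dox750 and 0.45 in Dox1000, which are 1.38, 1.37, 1.36, 1.36 and 1.36 on the fold scale. The other 475 measured genes of chromosome 12 had medians of 0.41, 0.44, 0.44, 0.46 and 0.43. The 8708 genes of chromosomes other than 12 and 20 had medians between -0.05 and -0.02. No other chromosome came near these values except chromosome 20, whose 284 genes had medians from 0.41 to 0.50, and the medians of the 21 remaining chromosomes lay between -0.25 and 0.06 over the 5 lines.

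On single arrays the median of the 57 genes, taken against the Ramos mean of each gene, ran from -0.03 to 0.04 in Ramos, 0.41 to 0.49 in Dox100, 0.39 to 0.49 in Dox250, 0.43 to 0.50 in Dox500, 0.41 to 0.54 in Dox750 and 0.39 to 0.46 in Dox1000. All 20 resistant arrays lay above all 4 Ramos arrays, and the resistant lines overlapped one another. The genes of other chromosomes ran from -0.06 to 0.02 on the same arrays.

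**Figure D1:**
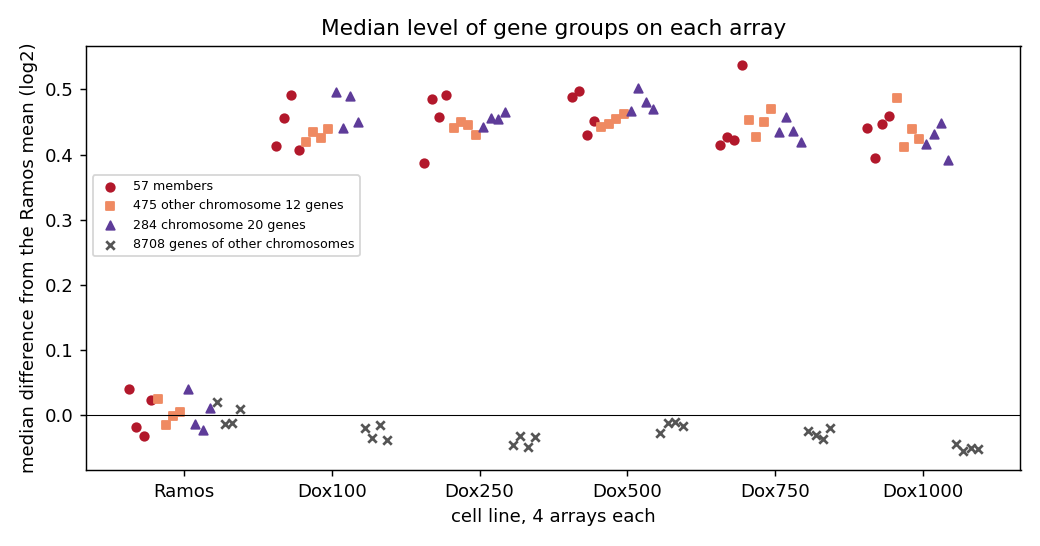
Median log2 difference from the Ramos mean on each of the 24 arrays (vertical axis) by cell line (horizontal axis), for the 57 chromosome 12 genes described (circles), the 475 other genes of chromosome 12 (squares), 284 genes of chromosome 20 (triangles) and 8708 genes of other chromosomes (crosses). The first 3 groups lie between 0.39 and 0.54 on every resistant array and near 0 in Ramos, and the crosses stay between -0.06 and 0.02.

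Most of the genes shared the direction. Above Ramos were 54 of 57 in Dox100, 50 in Dox250, 50 in Dox500, 51 in Dox750 and 52 in Dox1000. An adjusted p under 0.05 in limma was reached above Ramos by 41, 40, 44, 39 and 40 of them, where 24.1%, 23.9%, 25.2%, 26.8% and 27.6% of all genes were called higher, and below Ramos by 1, 1, 1, 1 and 3, where 22.2%, 25.5%, 23.2%, 25.9% and 29.7% of all genes were called lower. These contrasts entered the choice of the list, so nothing is read from the counts. All 4 arrays lay above all 4 Ramos arrays for 38, 37, 45, 37 and 39 of the genes, against 21.0%, 21.3%, 23.2%, 24.2% and 24.2% of all genes, and below for 1, 1, 0, 1 and 2, against 19.3%, 23.0%, 21.4%, 23.6% and 26.0%.

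Across lines, 46 of 57 genes (80.7%) stood above Ramos in all 5, against 347 of the 475 other chromosome 12 genes (73.1%) and 2298 of 8708 genes of other chromosomes (26.4%). For 26 genes all 20 resistant arrays exceeded all Ramos arrays, among them the lysophospholipid acyltransferase LPCAT3, the cyclin T subunit CCNT1, the nucleoporin NUP37 and the apoptosis regulator DIABLO. The matching share over all genes was not counted, so nothing is read from the 26. APOLD1 alone had a mean below Ramos in all 5 lines, although it was not well above background in Dox100, Dox250 and Dox750 and its direction is not established in the last 2 of these, and ETV6, ITPR2, TSPAN31, RAP1B, YEATS4, BTG1, APAF1, UNG, PEBP1 and DYNLL1 changed sign between lines. The spread of 1 gene's difference over the 5 resistant lines had a median of 0.33 and ran from 0.09 to 1.34. It was under 0.25 for 16 genes and widest for CDKN1B.

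**Figure D2:**
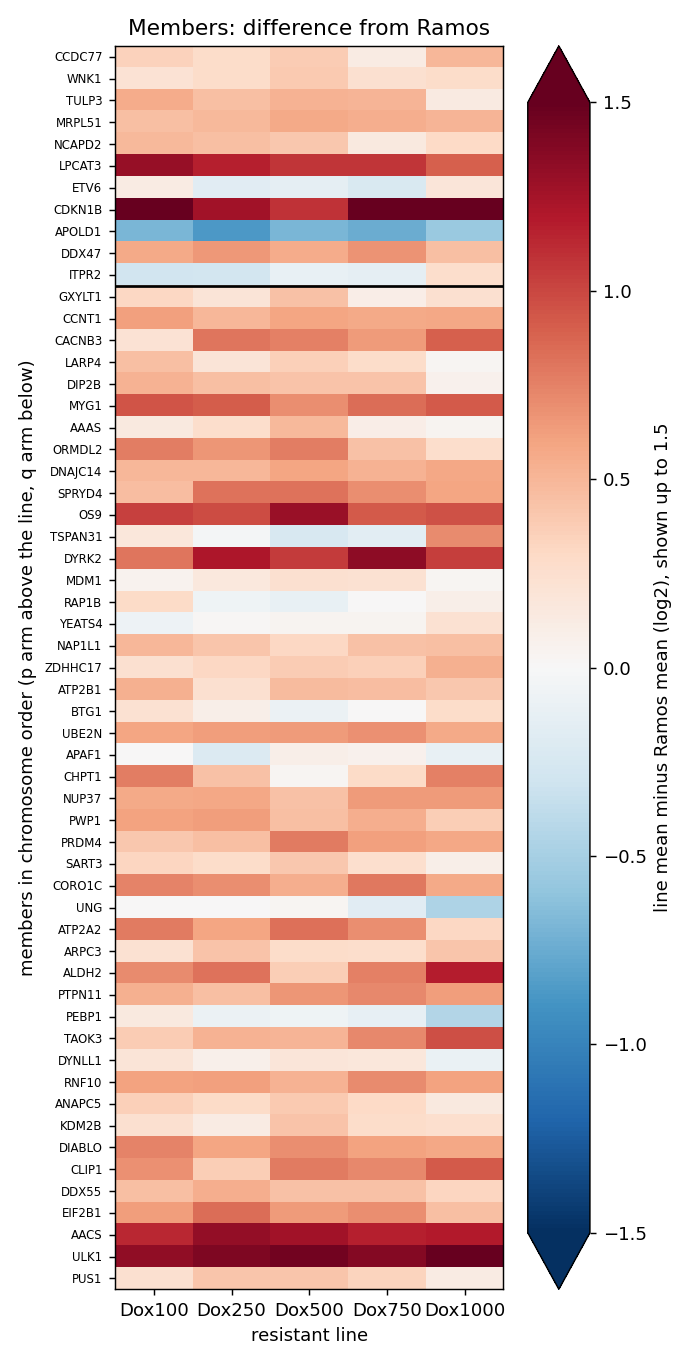
Difference of each resistant line's mean from the Ramos mean (log2, colour, red above and blue below Ramos, colours capped at 1.5) for the 57 genes in chromosome order (rows, p arm above the black line) in the 5 resistant lines (columns). Most rows are light to mid red in every column, the darkest rows are CDKN1B, ULK1, AACS, LPCAT3, OS9 and DYRK2, and APOLD1 is the row that is blue throughout.

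The difference from Ramos covered both arms. Among the 57 genes the p arm and q arm medians were 0.45 and 0.48 in Dox100, 0.45 and 0.45 in Dox250, 0.41 and 0.45 in Dox500, 0.24 and 0.45 in Dox750, and 0.30 and 0.45 in Dox1000. The p arm holds only 11 of these genes, and with the 3 genes left out that were not detected on all 24 arrays (APOLD1, ITPR2 and MDM1) the q arm minus p arm difference in Dox750 went from 0.21 to -0.05. Over the other genes of the chromosome, 111 on the p arm and 364 on the q arm, the medians were 0.40 and 0.42 in Dox100, 0.40 and 0.44 in Dox250, 0.40 and 0.44 in Dox500, 0.39 and 0.48 in Dox750, and 0.34 and 0.49 in Dox1000.

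Cut into 10 blocks of 40 to 59 consecutive measured genes, members included, the chromosome had a positive median in every block of every line. Block medians ran from 0.32 to 0.50 in Dox100, 0.34 to 0.51 in Dox250, 0.20 to 0.52 in Dox500, 0.36 to 0.52 in Dox750 and 0.27 to 0.59 in Dox1000. The lowest block was the one next to the centromere on the p arm, which holds the calcium channel gene ITPR2, in Dox100, Dox250 and Dox500. In Dox750 and Dox1000 it was the last block of the q arm, which holds DIABLO, CLIP1, DDX55, EIF2B1, AACS, ULK1 and PUS1. ULK1 and AACS were among the highest genes of the list in every line, in a block whose median was the lowest in Dox1000.

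**Figure D3:**
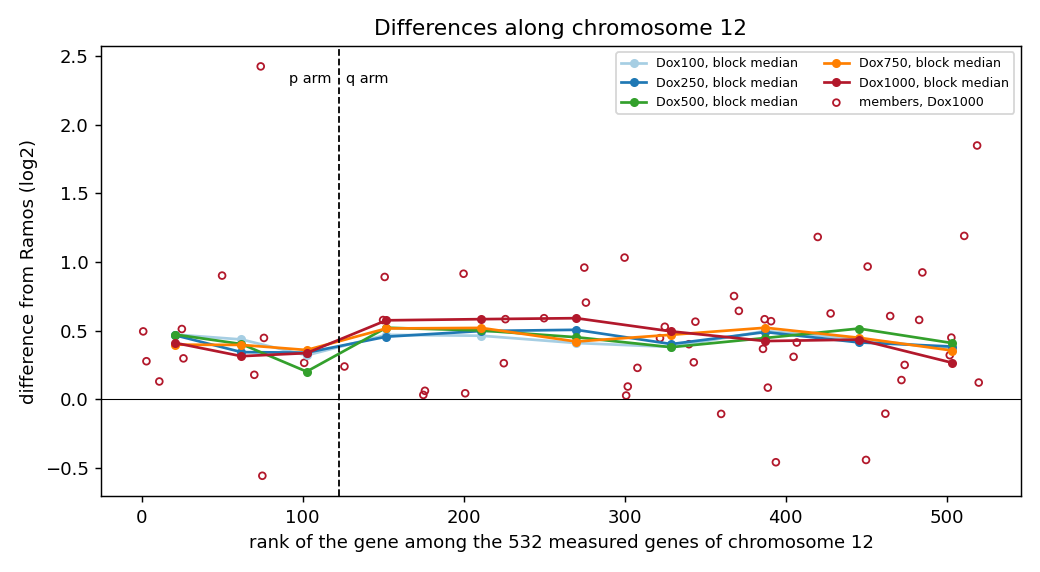
Difference from Ramos (log2, vertical axis) against the rank of each gene among the 532 measured genes of chromosome 12 (horizontal axis, p arm left of the dashed line). Filled points joined by lines are the medians of 10 blocks in each resistant line, and open circles are the single genes described, in Dox1000. The block medians stay between 0.20 and 0.59, while single genes run from -0.56 (APOLD1) to 2.42 (CDKN1B).

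Split by mean level over all arrays into 3 groups of 19, the dimmest genes (levels of 5.03 to 8.35) had medians of 0.32 in Dox100 and 0.40 in Dox1000, the middle ones 0.62 and 0.57, and the brightest (11.25 to 13.53) 0.45 and 0.37. Genes count as measured only if they passed the detection filter, so all 57 did, and 54 were detected on every array. For APOLD1 the line Dox100 was not well above background on any array, and only a bound of at least 1.06-fold lower than Ramos could be given. No bound could be given for Dox250 or Dox750, where it was not well above background either. ITPR2 was not well above background in Dox250, where its bound lay 1.02-fold below the Ramos mean. Its Dox250 arrays (5.28 to 5.63) overlapped those of Ramos (5.41 to 6.01), so its direction there is not established. Of the 17 genes with several kept probes, DYRK2, MDM1, ATP2A2, DYNLL1, KDM2B and PUS1 had another probe of the opposite sign in Dox1000 minus Ramos.

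Of the 7 genes of cell division and cell death, CDKN1B stood apart. Its levels were 6.34, 6.84, 6.75 and 6.67 in Ramos, 8.49, 8.33, 8.28 and 8.24 in Dox100, and 7.70, 7.98, 7.90 and 8.06 in Dox250. They were 7.54, 7.81, 7.81 and 7.79 in Dox500, 8.30, 8.27, 8.46 and 8.25 in Dox750, and 9.17, 8.89, 9.11 and 9.12 in Dox1000. Every resistant array lay above every Ramos array, Dox500 was the lowest resistant line and Dox1000 the highest. The differences from Ramos were 1.68, 1.26, 1.09, 1.67 and 2.42, and a second probe of the gene gave 2.42 in Dox1000. Between resistant lines CDKN1B fell by 0.42 ± 0.10 from Dox100 to Dox250 (limma, adjusted p = 0.00889), rose by 0.58 ± 0.10 from Dox500 to Dox750 (adjusted p = 0.00105) and rose by 0.76 ± 0.10 from Dox750 to Dox1000 (adjusted p = 1.75e-05). Its net gain from Dox100 to Dox1000 was 0.74 ± 0.10 (adjusted p = 8.13e-06).

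DYRK2, a kinase that phosphorylates p53, had levels of 8.30, 8.01, 7.70 and 8.10 in Ramos, 8.83, 8.77, 8.78 and 8.94 in Dox100, and 9.35, 9.22, 9.08 and 9.29 in Dox250. In the later lines it read 8.88, 9.24, 9.10 and 9.10 in Dox500, 9.40, 9.28, 9.46 and 9.32 in Dox750, and 8.89, 9.22, 9.01 and 9.12 in Dox1000. No resistant array overlapped Ramos, and the gene rose by 0.41 ± 0.11 from Dox100 to Dox250 (limma, adjusted p = 0.0138) and fell by 0.31 ± 0.11 from Dox750 to Dox1000 (adjusted p = 0.0423). Its dimmer probes gave 0.44 and -0.04 in Dox1000 minus Ramos where the brightest gave 1.03. From Dox100 to Dox250 they rose by only 0.10 and 0.13. Median scaling and the mean over probes each ended the call at that step. APAF1, the scaffold of the apoptosome, showed no such difference, with 9.11, 9.002, 8.94 and 8.85 in Ramos, 9.02, 9.16, 9.11 and 8.65 in Dox100, and 8.19, 9.24, 8.82 and 8.84 in Dox250. Its later arrays were 9.002, 8.79, 9.17 and 9.28 in Dox500, 9.14, 8.82, 9.07 and 9.14 in Dox750, and 8.88, 8.67, 8.90 and 9.03 in Dox1000. All 5 resistant lines overlapped Ramos for APAF1, and no contrast between resistant lines was called. DIABLO, which is released from mitochondria and binds inhibitors of caspases, stood above Ramos by 0.74, 0.60, 0.70, 0.61 and 0.58 in the 5 lines. NCAPD2, a condensin subunit, stood above by 0.49, 0.45, 0.41, 0.15 and 0.30, ANAPC5, a subunit of the anaphase-promoting complex, by 0.35, 0.28, 0.39, 0.30 and 0.14, and the antiproliferative gene BTG1 differed by 0.22, 0.09, -0.09, 0.00 and 0.27. ANAPC5 fell by 0.21 ± 0.06 from Dox100 to Dox1000 (limma, adjusted p = 0.00648). The later DYRK2 call was lost when any of Dox750 replicates 1, 3 and 4 and Dox1000 replicates 1, 3 and 4 was left out (adjusted p from 0.0528 to 0.136).

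Among 6 signalling genes, the autophagy-initiating kinase ULK1 had the largest values. ULK1 read 7.12, 6.78, 6.77 and 7.001 in Ramos, 8.501, 7.98, 8.56 and 7.94 in Dox100, and 8.34, 8.35, 8.28 and 8.32 in Dox250. It read 8.55, 8.29, 8.32 and 8.28 in Dox500, 8.06, 8.40, 8.41 and 8.31 in Dox750, and 8.73, 8.95, 8.75 and 8.63 in Dox1000. All resistant arrays were above all Ramos arrays, and the 4 Dox1000 arrays were above the other 16 resistant ones. The differences from Ramos were 1.33, 1.40, 1.45, 1.38 and 1.85, and its second probe gave 2.04 in Dox1000. ULK1 rose by 0.47 ± 0.12 from Dox750 to Dox1000 (limma, adjusted p = 0.00881) and rose by 0.52 ± 0.12 from Dox100 (adjusted p = 0.00249).

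PEBP1, also known as RAF kinase inhibitor protein, went the other way. Its levels were 12.46, 12.44, 12.31 and 12.28 in Ramos, 12.61, 12.48, 12.55 and 12.45 in Dox100, and 12.28, 12.24, 12.27 and 12.36 in Dox250. Its later levels were 12.34, 12.34, 12.36 and 12.21 in Dox500, 12.18, 12.25, 12.35 and 12.25 in Dox750, and 11.89, 11.91, 11.94 and 11.998 in Dox1000. The Dox100 arrays overlapped the upper Ramos arrays, and the 4 Dox1000 arrays lay below all other 20. PEBP1 fell by 0.23 ± 0.06 from Dox100 to Dox250 (limma, adjusted p = 0.0174), fell by 0.32 ± 0.06 from Dox750 to Dox1000 (adjusted p = 0.000868) and fell by 0.59 ± 0.06 from Dox100 to Dox1000 (adjusted p = 2.5e-07), the smallest adjusted p of the 57 genes in that contrast. The first of these was lost when any of Dox100 replicate 1 and Dox250 replicate 3 was left out (adjusted p from 0.0503 to 0.0681).

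TAOK3, a kinase of the STE20 family, read 7.22, 6.74, 6.93 and 6.96 in Ramos, 7.56, 6.96, 7.59 and 7.26 in Dox100, and 7.35, 7.57, 7.42 and 7.57 in Dox250. It then read 7.55, 7.28, 7.52 and 7.55 in Dox500, 7.45, 7.87, 7.68 and 7.73 in Dox750, and 7.83, 7.76, 8.001 and 8.12 in Dox1000. Its Dox100 arrays overlapped Ramos and its Dox1000 arrays did not, and it rose by 0.59 ± 0.13 from Dox100 to Dox1000 (limma, adjusted p = 0.00113). PTPN11, the phosphatase SHP2 of receptor signalling, read 10.73, 10.80, 11.03 and 10.97 in Ramos, 11.31, 11.54, 11.37 and 11.44 in Dox100, and 11.23, 11.45, 11.26 and 11.38 in Dox250. Later it read 11.38, 11.46, 11.84 and 11.48 in Dox500, 11.58, 11.53, 11.62 and 11.68 in Dox750, and 11.61, 11.35, 11.51 and 11.55 in Dox1000. Every resistant array exceeded every Ramos array and no contrast between resistant lines was called for PTPN11. WNK1, a kinase that controls ion cotransport, differed from Ramos by 0.21, 0.28, 0.40, 0.24 and 0.28, and its second probe by 0.33, 0.30, 0.69, 0.12 and 0.04. RAP1B, a small GTPase of cell adhesion, differed by 0.29, -0.06, -0.11, 0.01 and 0.09 and fell by 0.35 ± 0.11 from Dox100 to Dox250 (limma, adjusted p = 0.0406). The RAP1B call was lost when any of Dox100 replicates 1, 2 and 3 and Dox250 replicates 1, 2, 3 and 4 was left out (adjusted p from 0.0544 to 0.0995).

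**Figure D4:**
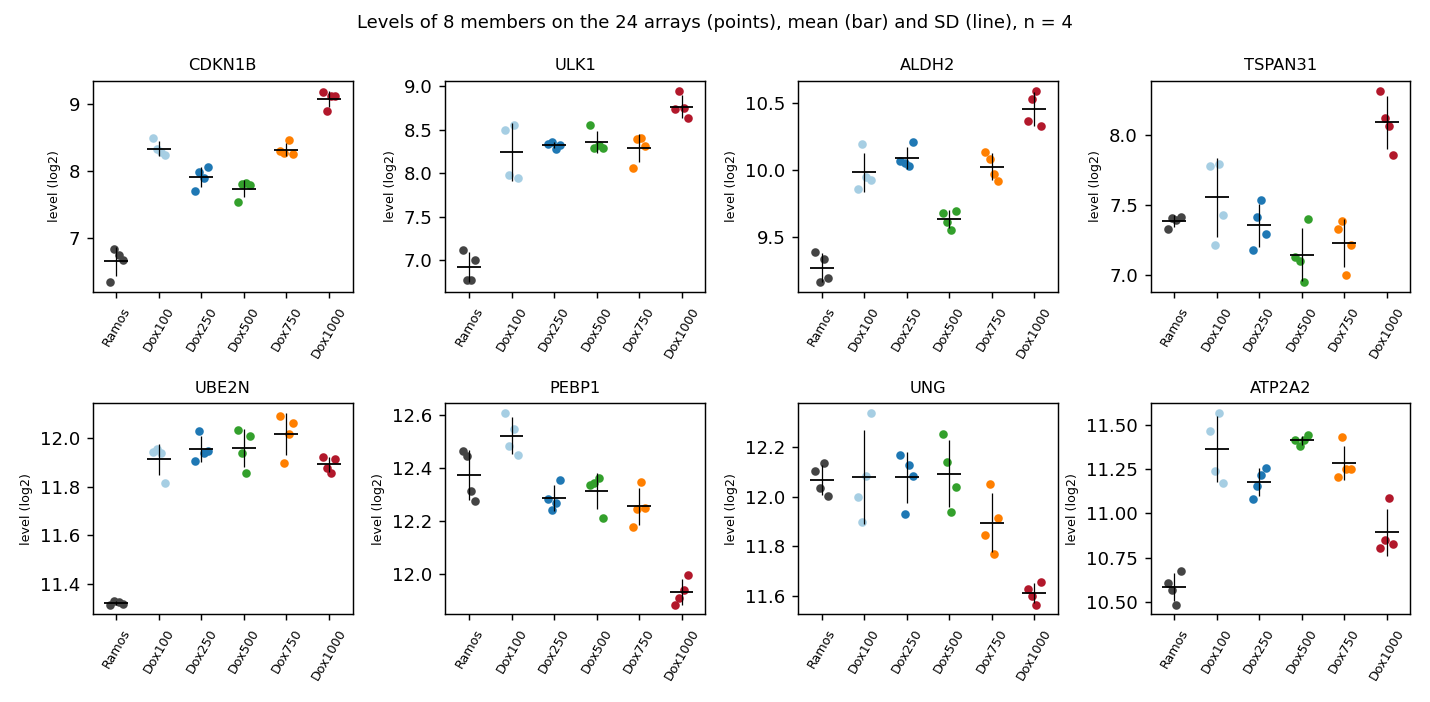
Log2 levels of 8 chromosome 12 genes on the 24 arrays (points), with the mean (bar) and SD (line) of each line, n = 4, on a separate vertical axis for each gene. CDKN1B, ULK1, ALDH2, UBE2N and ATP2A2 lie above Ramos on every resistant array, TSPAN31 departs from Ramos without overlap only in Dox1000, and PEBP1 and UNG end below Ramos in Dox1000.

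The 6 enzymes of lipid, sugar and small-molecule metabolism had medians of 0.77 in Dox100 and 0.83 in Dox1000. ALDH2, the mitochondrial aldehyde dehydrogenase, read 9.39, 9.16, 9.33 and 9.20 in Ramos, 9.86, 10.19, 9.94 and 9.93 in Dox100, and 10.06, 10.05, 10.03 and 10.21 in Dox250. It read 9.68, 9.61, 9.55 and 9.70 in Dox500, 10.13, 10.08, 9.97 and 9.92 in Dox750, and 10.36, 10.52, 10.59 and 10.33 in Dox1000. Dox500 was the lowest resistant line, with no array overlapping those of the other resistant lines, and Dox1000 was the highest. ALDH2 fell by 0.45 ± 0.08 from Dox250 to Dox500 (limma, adjusted p = 0.000818), rose by 0.39 ± 0.08 at the next step (adjusted p = 0.00574) and rose by 0.43 ± 0.08 at the last (adjusted p = 0.000764). CHPT1, a cholinephosphotransferase of phosphatidylcholine synthesis, was also lowest in Dox500 among the resistant lines. It differed from Ramos by 0.77, 0.44, 0.02, 0.29 and 0.75, fell by 0.33 ± 0.10 and then fell by 0.42 ± 0.10 at the first 2 steps between resistant lines (limma, adjusted p = 0.0428 and 0.00952) and rose by 0.46 ± 0.10 at the last (adjusted p = 0.00268). The first CHPT1 call was lost when any of Dox100 replicates 1, 2 and 4, Dox250 replicates 1, 2, 3 and 4 and Dox750 replicates 3 and 4 was left out (adjusted p from 0.0501 to 0.11).

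AACS, which activates acetoacetate for lipid synthesis, read 7.73, 7.34, 7.20 and 7.21 in Ramos, 8.61, 8.24, 8.69 and 8.46 in Dox100, and 8.505, 8.81, 8.85 and 8.57 in Dox250. It read 8.82, 8.65, 8.60 and 8.44 in Dox500, 8.43, 8.66, 8.58 and 8.45 in Dox750, and 8.59, 8.56, 8.51 and 8.59 in Dox1000. The resistant arrays all exceeded Ramos and overlapped one another, and no contrast between resistant lines was called. LPCAT3, which remodels membrane phospholipids, differed from Ramos by 1.31, 1.17, 1.07, 1.08 and 0.90 and fell by 0.41 ± 0.09 from Dox100 to Dox1000 (limma, adjusted p = 0.0018).

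ORMDL2, a regulator of sphingolipid synthesis, read 6.46, 6.14, 6.06 and 6.41 in Ramos, 6.79, 6.76, 7.50 and 7.11 in Dox100, and 6.98, 6.72, 7.04 and 6.98 in Dox250. It read 6.58, 7.27, 7.20 and 7.08 in Dox500, 6.66, 6.89, 6.43 and 6.86 in Dox750, and 6.58, 6.37, 6.37 and 6.81 in Dox1000. The Dox100 arrays were above Ramos and those of Dox1000 overlapped it. ORMDL2 fell by 0.51 ± 0.16 from Dox100 to Dox1000 (limma, adjusted p = 0.0196), a call lost without Dox100 replicate 3 (-0.36, adjusted p = 0.0963) and without replicate 2 or 3 of Dox1000 (0.059 and 0.0583). GXYLT1, a xylosyltransferase that extends glucose on Notch, read 8.29, 8.27, 8.15 and 8.29 in Ramos, 8.51, 8.74, 8.47 and 8.52 in Dox100, and 8.18, 8.49, 8.54 and 8.55 in Dox250. It read 8.72, 8.73, 8.57 and 8.73 in Dox500, 8.29, 8.38, 8.18 and 8.57 in Dox750, and 8.67, 8.54, 8.45 and 8.31 in Dox1000. Dox500 lay above Ramos and Dox750 overlapped it. GXYLT1 fell by 0.33 ± 0.10 from Dox500 to Dox750 (limma, adjusted p = 0.0392), and the call was lost in 6 of 24 fits that left out 1 array, with Dox500 replicates 1, 2 and 4 and Dox750 replicates 1, 2 and 3 (adjusted p from 0.0637 to 0.12).

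The 4 genes of calcium handling differed among themselves. ATP2A2, the calcium pump SERCA2 of the endoplasmic reticulum, read 10.61, 10.57, 10.48 and 10.67 in Ramos, 11.47, 11.24, 11.57 and 11.17 in Dox100, and 11.08, 11.16, 11.22 and 11.26 in Dox250. It read 11.41, 11.38, 11.41 and 11.44 in Dox500, 11.21, 11.43, 11.25 and 11.25 in Dox750, and 10.81, 10.85, 11.09 and 10.83 in Dox1000. By the probe read, all resistant arrays exceeded Ramos, and of the resistant lines Dox1000 was nearest to Ramos. One of the other probes differed from Ramos by 0.91, 0.87, 1.04, 0.94 and 0.52, and another by 0.12, 0.12, 0.45, 0.14 and -0.22. ATP2A2 fell by 0.39 ± 0.08 from Dox750 to Dox1000 (limma, adjusted p = 0.00197) and fell by 0.47 ± 0.08 from Dox100 (adjusted p = 0.000175), and its other probes gave -0.39 and -0.34 for that contrast. CACNB3, a beta subunit of voltage-gated calcium channels, read 6.45, 5.97, 6.30 and 6.41 in Ramos, 6.36, 6.41, 6.61 and 6.62 in Dox100, and 6.95, 6.97, 7.27 and 7.15 in Dox250. It read 7.02, 7.14, 7.19 and 6.80 in Dox500, 6.61, 7.08, 6.99 and 7.01 in Dox750, and 7.17, 7.40, 7.44 and 6.69 in Dox1000. Dox100 overlapped Ramos and the later 4 lines did not, and CACNB3 rose by 0.59 ± 0.15 from Dox100 to Dox250 (limma, adjusted p = 0.0104) and rose by 0.67 ± 0.15 from Dox100 to Dox1000 (adjusted p = 0.00106). ITPR2, an inositol trisphosphate receptor that releases calcium from the endoplasmic reticulum, rose by 0.55 ± 0.15 in the same contrast (limma, adjusted p = 0.00695) from 2 detected arrays of 4 in Dox100 to 4 of 4 in Dox1000. ATP2B1, the calcium pump of the plasma membrane, differed from Ramos by 0.53, 0.24, 0.47, 0.46 and 0.40, with no call between resistant lines.

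UBE2N, the ubiquitin-conjugating enzyme that builds lysine-linked chains in DNA damage and immune signalling, was among the steadiest genes. It read 11.32, 11.33, 11.33 and 11.32 in Ramos, 11.94, 11.95, 11.94 and 11.81 in Dox100, and 11.91, 12.03, 11.94 and 11.94 in Dox250. It read 12.03, 11.94, 11.86 and 12.01 in Dox500, 12.09, 11.90, 12.01 and 12.06 in Dox750, and 11.92, 11.87, 11.85 and 11.91 in Dox1000. The Ramos arrays ran from 11.32 to 11.33, every resistant array lay above them, and no contrast between resistant lines was called. RNF10, a RING finger ubiquitin ligase, differed from Ramos by 0.60, 0.62, 0.53, 0.71 and 0.61 and had no call between resistant lines either.

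UNG, the uracil-DNA glycosylase that removes uracil left by activation-induced deaminase and misincorporation, read 12.11, 12.03, 12.13 and 12.004 in Ramos, 11.998, 11.90, 12.09 and 12.34 in Dox100, and 12.17, 11.93, 12.13 and 12.09 in Dox250. It read 12.25, 12.14, 11.94 and 12.04 in Dox500, 11.85, 12.05, 11.77 and 11.92 in Dox750, and 11.63, 11.60, 11.56 and 11.66 in Dox1000. The first 4 resistant lines overlapped Ramos, and Dox1000 lay below all other arrays. UNG fell by 0.28 ± 0.09 from Dox750 to Dox1000 (limma, adjusted p = 0.0243) and fell by 0.47 ± 0.09 from Dox100 to Dox1000 (adjusted p = 0.000278). The first of these calls was lost when any of Dox750 replicates 2 and 4 and Dox1000 replicates 2 and 3 was left out (adjusted p from 0.0513 to 0.0887).

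The 8 genes of RNA processing, ribosomes and translation all stood above Ramos in all 5 lines, with medians of 0.45 in Dox100 and 0.34 in Dox1000. MRPL51, a mitochondrial ribosomal protein, differed from Ramos by 0.45, 0.49, 0.57, 0.54 and 0.51, and EIF2B1, a subunit of the eIF2B exchange factor, by 0.63, 0.84, 0.64, 0.70 and 0.45. From Dox750 to Dox1000 DDX47, an RNA helicase of ribosome production, fell by 0.23 ± 0.07, PWP1, a WD-repeat protein of ribosome production, fell by 0.18 ± 0.06 and EIF2B1 fell by 0.25 ± 0.09 (limma, adjusted p = 0.026, 0.0435 and 0.042). Over the span from Dox100 to Dox1000 PWP1 fell by 0.23 ± 0.06 and LARP4, which binds poly(A) tails, fell by 0.42 ± 0.12 (limma, adjusted p = 0.00479 and 0.00891). PUS1, a pseudouridine synthase and the last listed gene of the q arm, read 11.12, 10.89, 10.90 and 11.06 in Ramos, 11.15, 11.18, 11.27 and 11.33 in Dox100, and 11.51, 11.34, 11.52 and 11.26 in Dox250. It read 11.49, 11.41, 11.34 and 11.40 in Dox500, 11.30, 11.29, 11.39 and 11.34 in Dox750, and 10.96, 11.26, 11.21 and 11.03 in Dox1000. Dox1000 overlapped Ramos for PUS1 and no contrast between resistant lines was called, and its second probe gave -0.32 in Dox1000 minus Ramos. At the last step the calls were lost for DDX47 when any of Dox750 replicates 1, 3 and 4 and Dox1000 replicate 3 was left out (adjusted p from 0.0516 to 0.0894), for PWP1 when any of Dox250 replicate 3, Dox500 replicate 4, Dox750 replicates 1, 2 and 4 and Dox1000 replicates 1, 2 and 3 was left out (adjusted p from 0.0508 to 0.138) and for EIF2B1 when any of Dox750 replicates 1 and 3 and Dox1000 replicates 1, 2, 3 and 4 was left out (adjusted p from 0.0526 to 0.139).

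Of 6 chromatin and transcription genes, the P-TEFb cyclin CCNT1 differed from Ramos by 0.62, 0.50, 0.59, 0.57 and 0.58, and the histone chaperone NAP1L1 by 0.50, 0.41, 0.31, 0.44 and 0.45. A second NAP1L1 probe gave 0.20, 0.35, 0.18, 0.18 and 0.09, and the other CCNT1 probes each gave 0.33 in Dox1000. KDM2B, a histone demethylase, and PRDM4, a zinc finger factor, rose from Dox250 to Dox500, KDM2B by 0.31 ± 0.07 and PRDM4 by 0.32 ± 0.09 (limma, adjusted p = 0.00604 and 0.0158). The second KDM2B probe gave -0.02 in Dox1000 minus Ramos where the first gave 0.25. ETV6, an ETS-family repressor, overlapped Ramos in every line and rose by 0.41 ± 0.13 from Dox750 to Dox1000 (limma, adjusted p = 0.0231). YEATS4 of the TIP60 complex differed from Ramos by -0.07, 0.01, 0.05, 0.04 and 0.23 and had no call between resistant lines. The PRDM4 call was lost when any of Dox500 replicates 2 and 3 was left out (adjusted p from 0.0586 to 0.0734) and that of ETV6 when any of Dox750 replicates 1 and 2 and Dox1000 replicates 2 and 3 was left out (adjusted p from 0.063 to 0.0813).

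Of the 4 genes of actin and microtubules, CLIP1, which tracks growing microtubule ends, read 7.34, 7.25, 7.48 and 7.59 in Ramos, 7.99, 8.31, 8.06 and 8.04 in Dox100, and 7.44, 8.14, 7.68 and 7.87 in Dox250. It read 8.11, 8.08, 8.35 and 8.25 in Dox500, 8.12, 8.11, 7.92 and 8.40 in Dox750, and 8.32, 8.09, 8.39 and 8.55 in Dox1000. Only Dox250, through 1 array, overlapped Ramos. CLIP1 rose by 0.41 ± 0.13 from Dox250 to Dox500 (limma, adjusted p = 0.0381), a call lost without Dox250 replicate 1 (0.30, adjusted p = 0.14), Dox250 replicate 3, Dox500 replicate 3 or Dox500 replicate 4 (adjusted p = 0.102, 0.117 and 0.0832). DYNLL1, the dynein light chain, read 13.41, 13.50, 13.54 and 13.32 in Ramos, 13.75, 13.66, 13.58 and 13.57 in Dox100, and 13.32, 13.68, 13.47 and 13.58 in Dox250. It read 13.58, 13.58, 13.72 and 13.60 in Dox500, 13.76, 13.37, 13.62 and 13.70 in Dox750, and 13.32, 13.37, 13.30 and 13.36 in Dox1000. Dox100 and Dox500 lay above Ramos without overlap and the other lines overlapped it, and DYNLL1 fell by 0.30 ± 0.09 from Dox100 to Dox1000 (limma, adjusted p = 0.00859). CORO1C, an actin-binding coronin, and ARPC3, a subunit of the Arp2/3 complex, differed from Ramos by 0.75, 0.70, 0.55, 0.79 and 0.57 and by 0.22, 0.42, 0.27, 0.27 and 0.41, with no call between resistant lines.

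The ER proteins OS9, a lectin of protein quality control, and DNAJC14, a co-chaperone, differed from Ramos by 1.03, 0.98, 1.30, 0.92 and 0.96 and by 0.50, 0.50, 0.60, 0.52 and 0.58, with no call between resistant lines. The nucleoporin NUP37 differed by 0.57, 0.58, 0.44, 0.64 and 0.64 and the nucleoporin AAAS by 0.14, 0.26, 0.49, 0.10 and 0.04, also without a call.

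TSPAN31, a tetraspanin, had the largest change at a single step by the probes read, although the second CDKN1B probe rose by 1.04 from Dox750 to Dox1000. It read 7.32, 7.40, 7.39 and 7.41 in Ramos, 7.78, 7.21, 7.79 and 7.43 in Dox100, and 7.18, 7.41, 7.53 and 7.29 in Dox250. It read 7.13, 7.10, 6.94 and 7.40 in Dox500, 7.32, 7.38, 6.996 and 7.21 in Dox750, and 8.31, 8.12, 8.06 and 7.85 in Dox1000. The first 4 resistant lines overlapped Ramos, and Dox1000 lay above all other 20 arrays. TSPAN31 rose by 0.86 ± 0.13 from Dox750 to Dox1000 (limma, adjusted p = 4.7e-05) and rose by 0.54 ± 0.13 from Dox100 (adjusted p = 0.0023). CCDC77, a coiled-coil protein and the first measured gene of the p arm, read 9.44, 9.36, 9.22 and 9.34 in Ramos, 9.64, 9.65, 9.75 and 9.69 in Dox100, and 9.45, 9.82, 9.50 and 9.67 in Dox250. It read 9.64, 9.69, 9.74 and 9.79 in Dox500, 9.49, 9.37, 9.45 and 9.56 in Dox750, and 9.84, 9.72, 9.91 and 9.85 in Dox1000. Its Dox1000 arrays lay above all those of Ramos and Dox750, and CCDC77 fell by 0.25 ± 0.08 from Dox500 to Dox750 and rose by 0.37 ± 0.08 to Dox1000 (limma, adjusted p = 0.0495 and 0.00165). The CCDC77 fall was called in only 5 of 24 fits without 1 array (without Ramos replicates 1 and 3, Dox250 replicates 1 and 2 and Dox1000 replicate 2), with adjusted p up to 0.127 in the others.

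APOLD1 read 5.73, 5.56, 5.51 and 5.67 in Ramos, 4.87, 5.21, 5.04 and 4.59 in Dox100, and 4.79, 4.71, 4.83 and 4.69 in Dox250. It read 4.59, 4.88, 4.62 and 5.63 in Dox500, 5.29, 5.09, 4.52 and 4.60 in Dox750, and 5.22, 4.80, 4.69 and 5.54 in Dox1000. It was detected on 3 Ramos arrays, on 1 each of Dox500 and Dox1000 and on none of Dox100, Dox250 and Dox750, so its levels there are near background. DIP2B, a disco-interacting protein homolog, fell by 0.36 ± 0.09 from Dox750 and fell by 0.46 ± 0.09 from Dox100 to Dox1000 (limma, adjusted p = 0.00712 and 0.000548), where its difference from Ramos was 0.06 by the probe read. Its second probe stood at 0.34 in Dox1000 minus Ramos, and gave -0.31 from Dox750 and -0.24 from Dox100 to Dox1000. TULP3, a tubby-like protein of the cilium, fell by 0.42 ± 0.15 in the longer contrast (limma, adjusted p = 0.034). SPRYD4 rose by 0.35 ± 0.11 from Dox100 to Dox250 (limma, adjusted p = 0.0463). MYG1, an exonuclease, differed from Ramos by 0.94, 0.91, 0.70, 0.84 and 0.91, with no call between resistant lines. The TULP3 call was lost when any of Dox100 replicates 1, 2 and 3 and Dox1000 replicates 1 and 4 was left out (adjusted p from 0.0589 to 0.134), and that of SPRYD4 held in 8 of 24 such fits (without Ramos replicate 1, Dox100 replicate 3, Dox500 replicates 2 and 3, Dox750 replicates 3 and 4 and Dox1000 replicates 2 and 4).

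Between resistant lines 4 to 7 of the 57 genes were called at each of the first 3 steps, 16 at the last and 18 from Dox100 to Dox1000. From Dox100 to Dox250 limma called 3 higher (5.26%, against 5.21% of all genes) and 4 lower (7.02% against 8.25%). From Dox250 to Dox500 it called 3 higher (5.26% against 7.86%) and 2 lower (3.51% against 6.81%), and from Dox500 to Dox750 2 higher (3.51% against 3.98%) and 2 lower (3.51% against 4.03%). From Dox750 to Dox1000 it called 7 higher (12.3% against 12.1%) and 9 lower (15.8% against 11.7%). From Dox100 to Dox1000 it called 7 higher (12.3% against 17.3%) and 11 lower (19.3% against 20.5%). These shares lie near those of all genes and are no result about the list. The median change of the 57 genes was -0.04, 0.03, -0.02 and -0.03 over the 4 steps and -0.02 from Dox100 to Dox1000. Without 1 array the numbers called ran from 3 to 7, 3 to 6, 2 to 5, 10 to 19 and 17 to 19. The lower ends came without Dox100 replicate 1 or Dox250 replicate 3 (3 at the first step, and 4 without Dox250 replicate 1 or 4), without Dox500 replicate 3 (3 at the second), without Dox500 replicate 2 or 4 or Dox750 replicate 1 or 3 (2 at the third), and without Dox750 replicate 1 or Dox1000 replicate 3 (10 at the fourth). By direction, the lower calls of the first step numbered 1 without Dox100 replicate 1 or Dox250 replicate 3 and 2 without Dox100 replicate 2 or Dox250 replicate 1 or 4, and the higher calls of the second step 1 without Dox500 replicate 3. The lower calls of the third step ran from 0 (without Dox500 replicate 2 or 4 or Dox750 replicate 1 or 3) to 3 and were at least 2 in 7 of 24 fits. Those of the fourth step numbered 4 without Dox750 replicate 1 or 4 or Dox1000 replicate 3, and 5 without Dox1000 replicate 1. Of the 50 calls over the 5 contrasts 33 held in every fit without 1 array. Median scaling ended 7 calls, those of SPRYD4 and DYRK2 at the first step, KDM2B and CLIP1 at the second, CCDC77 and GXYLT1 at the third and EIF2B1 at the fourth, and centring on other chromosomes ended 4, of RAP1B, CHPT1, CCDC77 and EIF2B1. The mean over probes ended those of DYRK2 and CHPT1 at the first step and KDM2B at the second, and with no probe filter 16 were lost.

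Genes of 11 complexes allowed chromosome 12 subunits to be set beside their partners, since the partners' contrasts with Ramos did not enter the choice. Not all listed partners are separate subunits, since the lists also hold ORMDL1 and ORMDL3 beside ORMDL2, CCNT2 beside CCNT1, and the inhibitor XIAP. Of 69 listed partners 62 were measured, 58 of them on other chromosomes. Of these 58, limma called 4, 5, 8, 7 and 7 higher than Ramos and 11, 15, 10, 14 and 25 lower in Dox100, Dox250, Dox500, Dox750 and Dox1000. The shares called lower were 19.0%, 25.9%, 17.2% and 24.1% in the first 4 lines and 43.1% in Dox1000. Among the 8708 genes of chromosomes other than 12 and 20 they were 23.8%, 27.3%, 24.9%, 27.7% and 31.8%. The shares called higher were 6.90%, 8.62%, 13.8%, 12.1% and 12.1%, against 20.1%, 20.1%, 21.2%, 23.2% and 24.1% of the same genes. Of all 106 such calls 75 held in every fit without 1 array. The partners' median difference was -0.06, -0.03, -0.04, -0.02 and -0.16 in the 5 lines.

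The Nup107-Nup160 complex, the outer ring of the nuclear pore, had its chromosome 12 genes above Ramos and its other measured partners below it in Dox1000. NUP37 differed from Ramos by 0.57 in Dox100 and 0.64 in Dox1000, and NUP107, a partner on chromosome 12 as well, by 0.38 and 0.22. The 4 arrays read 11.26, 11.51, 11.31 and 11.24 in Ramos for NUP37 and 12.06, 11.86, 11.95 and 12.02 in Dox1000, with no overlap. All 6 measured partners on other chromosomes were below Ramos in Dox1000 at an adjusted p under 0.05 in limma, and 1, 2, 1 and 2 of 6 were in the 4 lines before it. Of the 8708 genes of chromosomes other than 12 and 20, 31.8% were called lower in Dox1000. In the 4 lines before it their shares were 23.8%, 27.3%, 24.9% and 27.7%, near that of 1 or 2 in 6. Partners other than NUP160 were named after their values were seen. NUP160 was lowest, at -0.98 ± 0.12 (adjusted p = 2.62e-07), with NUP85 at -0.45 ± 0.06 (adjusted p = 2.17e-06), NUP43 at -0.41 ± 0.13 (adjusted p = 0.0123), NUP133 at -0.35 ± 0.08 (adjusted p = 0.000715), SEH1L at -0.31 ± 0.09 (adjusted p = 0.00902) and SEC13 at -0.22 ± 0.07 (adjusted p = 0.0138). The SEC13 call was lost when any of Ramos replicate 1 and Dox1000 replicate 2 was left out (adjusted p from 0.0559 to 0.0691) and that of NUP43 without Dox1000 replicate 2 (adjusted p = 0.0727).

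The 4 partners of EIF2B1 in eIF2B were at -0.05 to -0.30 in Dox1000, where EIF2B1 was at 0.45. EIF2B3 (-0.30 ± 0.10, limma adjusted p = 0.0114) and EIF2B2 (-0.21 ± 0.07, adjusted p = 0.0176) were called lower. In Dox100 the same 4 partners were at 0.05 to 0.14 with none called, and EIF2B1 was at 0.63. In the lines between, single partners were called higher, EIF2B4 in Dox250 (0.22 ± 0.08), EIF2B5 in Dox500 (0.28 ± 0.09) and EIF2B3 itself in Dox750 (0.27 ± 0.10, limma adjusted p = 0.0331, 0.0138 and 0.0264), and median scaling ended these 3 calls. The Dox1000 call of EIF2B2 was lost without Ramos replicate 1 (adjusted p = 0.0539), with centring on other chromosomes and with no probe filter. Those of the lines between were lost for EIF2B4 when any of Ramos replicate 3 and Dox250 replicates 1, 3 and 4 was left out (adjusted p from 0.0575 to 0.115), for EIF2B5 without Ramos replicate 3 (adjusted p = 0.0568) and for EIF2B3 when any of Ramos replicates 1 and 3 and Dox750 replicates 1, 3 and 4 was left out (adjusted p from 0.0521 to 0.0842). Of 6 Arp2/3 partners ARPC1A (-0.55 ± 0.08, limma adjusted p = 6.84e-06), ARPC1B and ARPC2 were called lower in Dox1000, beside ARPC3 at 0.41. The ARPC2 call (-0.16 ± 0.07, adjusted p = 0.049) held in only 6 of 24 fits without 1 array, and that of ARPC1B was lost without Ramos replicate 2 (adjusted p = 0.052). Of 10 TIP60 partners 5 were called lower and 1 higher in Dox1000, with TRRAP, a scaffold, lowest at -0.54 ± 0.09 (limma, adjusted p = 3.24e-05). TRRAP and ING3 were called in every fit without 1 array, and the other 4 were not. The calls were lost for ACTL6A when any of Ramos replicates 1 and 2 and Dox1000 replicate 3 was left out (adjusted p from 0.07 to 0.0788), for MRGBP when any of Ramos replicates 1 and 4 and Dox1000 replicate 4 was left out (adjusted p from 0.0558 to 0.0793), for RUVBL1, the one called higher, when any of Ramos replicates 1 and 3 and Dox1000 replicate 4 was left out (adjusted p from 0.0573 to 0.0897) and for RUVBL2 when any of Ramos replicates 1, 2 and 3 and Dox1000 replicates 2 and 4 was left out (adjusted p from 0.0607 to 0.126). Centring on other chromosomes ended the calls of ACTL6A, MRGBP, RUVBL2 and ARPC2, and median scaling that of RUVBL1. YEATS4 was at 0.23 and EP400, the chromosome 12 ATPase of the complex, at 0.24 ± 0.09. ARPC1A, ARPC1B, TRRAP, ING3 and the apoptosome component CYCS (-0.54 ± 0.10, limma adjusted p = 0.000146) lie on chromosome 7, whose 471 measured genes had a median of -0.25 in Dox1000. Their share in the partners' values was not tested.

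In the ULK1 complex neither measured partner on another chromosome, ATG13 or RB1CC1, was called in Dox100 or Dox1000, and ATG101, on chromosome 12, differed from Ramos by 0.56, 0.39, 0.58, 0.37 and 0.37. Of the serine palmitoyltransferase genes that ORMDL2 regulates, SPTLC1 stood at -0.89 ± 0.09 in Dox1000 (limma, adjusted p = 5.13e-08) by its brightest probe and at -0.05 (adjusted p = 0.605) by the mean over its probes. SPTSSA, a small subunit, stood at 0.71 ± 0.09 (limma, adjusted p = 1.35e-06). SPTLC2 differed from Ramos by -0.59, -0.39, -0.41, -0.55 and -0.67, and was called lower in every resistant line (limma, adjusted p = 7.75e-05 in Dox1000). Of the 5 measured genes listed beside ORMDL2, which include ORMDL1 and ORMDL3, 2 were called higher and 2 lower in Dox1000. ORMDL1, 1 of those called higher, stood at 0.20 ± 0.07 (limma, adjusted p = 0.0225). That call was lost without Ramos replicate 1 or 4 or Dox1000 replicate 1 (adjusted p from 0.0579 to 0.0879). Partners of KDM2B in its Polycomb complex went both ways, USP7 to -0.82 ± 0.12 and RYBP to -0.70 ± 0.07, RING1 to 0.46 ± 0.07 and SKP1 to 0.24 ± 0.08 (limma, adjusted p = 7.96e-06, 5.83e-08, 6.35e-06 and 0.0122). ANAPC7, a partner of ANAPC5 on chromosome 12 as well, differed from Ramos by 0.14, 0.60, 0.05, 0.21 and -0.04. Only in Dox250 was it called (limma, adjusted p = 0.0116). Of 11 partners of ANAPC5 in the anaphase-promoting complex on other chromosomes, ANAPC13 was called higher in Dox1000 at 0.52 ± 0.08 (limma, adjusted p = 9.85e-06), and CDC23, ANAPC2 and ANAPC1 were called lower, at -0.51 ± 0.08, -0.50 ± 0.13 and -0.25 ± 0.09 (adjusted p = 2.23e-05, 0.00232 and 0.0183). The ANAPC1 call was lost when any of Ramos replicate 4 and Dox1000 replicates 1 and 2 was left out (adjusted p from 0.0593 to 0.0784), with no probe filter and with the mean over probes. NCAPG stood at 0.20 ± 0.08 beside NCAPD2 and CCNT2 at -0.43 ± 0.14 beside CCNT1 (limma, adjusted p = 0.029 and 0.0133). Median scaling ended the calls of SKP1 and NCAPG. The NCAPG call was lost without Ramos replicate 1 or 2 or Dox1000 replicate 4 (adjusted p from 0.0701 to 0.0946), and that of CCNT2 without Ramos replicate 3 (adjusted p = 0.0568).

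**Figure D5:**
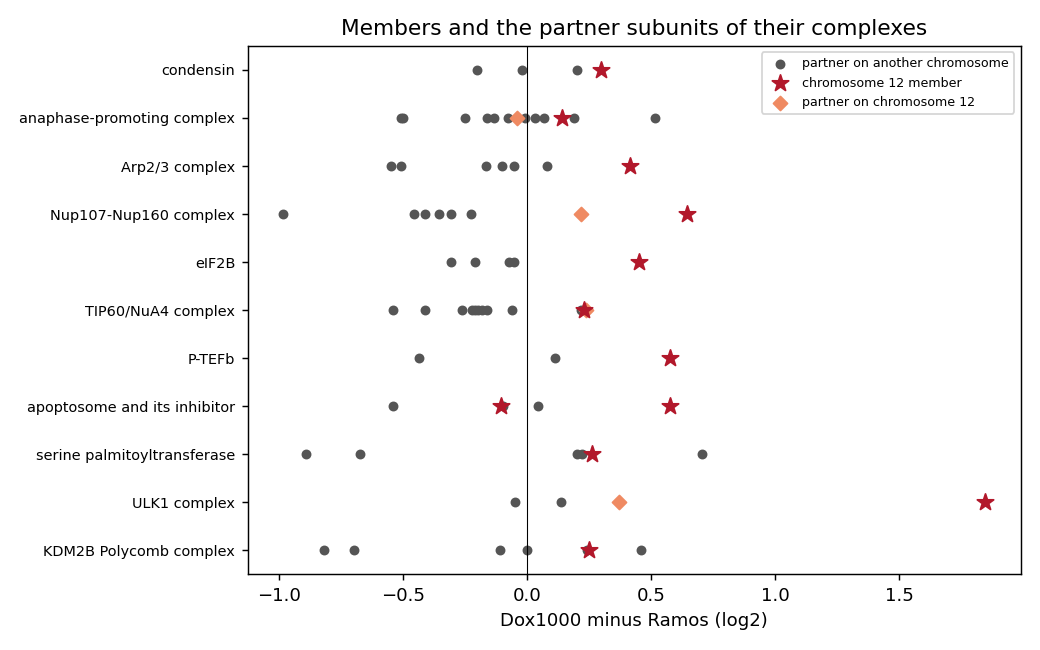
Dox1000 minus Ramos (log2, horizontal axis) for genes listed for 11 complexes (rows), most of them subunits. Stars are the chromosome 12 genes described, diamonds their partners on chromosome 12 and grey points partners on other chromosomes. The stars of NUP37, EIF2B1, ARPC3, CCNT1, ULK1, NCAPD2, DIABLO and, narrowly, YEATS4 lie right of all grey points of their row. Those of ANAPC5, ORMDL2, KDM2B and APAF1 do not. The 6 grey points of the Nup107-Nup160 complex all lie below 0.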

How the data were processed

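The authors deposited raw bead intensity per probe for each of the 24 arrays, which the values and file headers show to be uncorrected for background and not scaled between arrays. The file headers also name a deposited detection p-value for every probe and array. A deposited log2 table matched log2 of quantile-normalized signals without background subtraction (highest absolute difference 0.00505, and 24 of 24 columns matched their own array best) and served as an alternative. The submitters' processing notes name lumi, with no version or role. The genome build and probe annotation behind the arrays were not given in the sources used here. No 2 arrays were identical. The members, lists and tests were chosen with earlier results of these data known.

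Background was corrected with limma's nec (normexp, control signal estimated from detection p-values, offset 16), followed by quantile normalization and log2. Probes detected (p under 0.01) on at least 3 of 4 arrays of at least 1 line were kept, 15765 of 47323. The brightest kept probe stood for its gene. Of all probes 30113 carried 1 symbol, 8 several and 17202 none, and 30070 probes took their current symbol through an Entrez identifier. Differences and tests used limma 3.58.1 in R 4.3.3, with 1 mean per line over all 24 arrays and Benjamini-Hochberg adjustment over the kept probes, and a gene was called at an adjusted p under 0.05. The procedure from normalization on was tested on simulated data. Gene order came from RefSeq GRCh38.p14, with the arm boundary between ALG10 and ALG10B. An undetected line has only a bound, set by the lowest detected signal per array. The number of arrays limits the precision.

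Values on every array are given for the 5 highest and 5 lowest genes in Dox1000 minus Ramos, the 3 called genes with the largest change each way from Dox100 to Dox1000, the largest called gene each way at each step, and CDKN1B, APAF1, UNG, ALDH2, PTPN11, UBE2N, CCDC77 and PUS1. Of partners, the called one with the largest difference in Dox1000 is named per complex, and other partners and genes named were chosen after their values were seen. Alternatives covered the background correction (none), the scaling (by medians, or centred on other chromosomes), the source (deposited log2), the probe filter (none, or all 24 arrays), the probe summary (mean), the threshold (0.01), a replicate block, and omission of single arrays.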

Additional observations from a re-analysis of the deposited data

Results flagged for a closer look

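Single arrays stood apart from the other 3 of their line in 9 of 132 groups of 4 examined, by Dixon's test, and chance gives about 1 in 20. GXYLT1 had a low array in 3 lines, at 8.15 in Ramos (others 8.27 to 8.29), 8.18 in Dox250 (8.49 to 8.55) and 8.57 in Dox500 (8.72 to 8.73). In Dox500 CDKN1B had a low array at 7.54 (7.79 to 7.81), TAOK3 a low one at 7.28 (7.52 to 7.55) and ULK1 a high one at 8.55 (8.28 to 8.32). UBE2N had a low array at 11.81 in Dox100 (11.94 to 11.95), and ATP2A2 a high one at 11.09 in Dox1000 (10.81 to 10.85). The median over the 57 genes was high on 1 Dox750 array, at 0.54 (0.41 to 0.43).

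For 4 genes the means of Dox100 and Dox1000 lay on opposite sides of the Ramos mean and the difference between the 2 resistant lines was called by limma. The arrays of ITPR2 overlapped Ramos in both lines, those of UNG and PEBP1 in Dox100 and those of DYNLL1 in Dox1000. ITPR2 was at -0.29 in Dox100 and 0.27 in Dox1000, a difference of 0.55 (adjusted p = 0.00695), and was detected on 2 of 4 Dox100 arrays. PEBP1 was at 0.15 in Dox100 and -0.44 in Dox1000, a difference of -0.59 (adjusted p = 2.5e-07). UNG was at 0.01 and -0.46, a difference of -0.47 (adjusted p = 0.000278). DYNLL1 was at 0.20 and -0.10, a difference of -0.30 (adjusted p = 0.00859), and its second probe was at 0.20 and 0.02.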

How the results depend on the processing

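The median of the 57 genes stayed above Ramos in all 5 lines under each alternative run. Without background correction it was 0.35, 0.37, 0.36, 0.32 and 0.35 in Dox100, Dox250, Dox500, Dox750 and Dox1000, and with the authors' deposited log2 values it was also 0.35, 0.37, 0.36, 0.32 and 0.35. In both, the q arm minus p arm difference was 0.13 in Dox250, 0.13 in Dox750 and 0.0774 (uncorrected) and 0.077 (deposited) in Dox1000, and 8 genes were called from Dox250 to Dox500 and 8 from Dox500 to Dox750. Median scaling gave 0.33 in Dox250, 0.30 in Dox500, 0.34 in Dox750 and 0.30 in Dox1000, where it moved the median of all genes to -0.13, -0.14, -0.11 and -0.13, and relative to genes of other chromosomes the 57 stood at 0.49, 0.48, 0.48 and 0.47. With it the arm difference in Dox1000 was 0.0683, and 3 and 2 genes were called at the Dox250 to Dox500 and the Dox500 to Dox750 steps. Centring on other chromosomes gave 0.50 in Dox250 and 0.49 in Dox1000. The mean over probes gave 0.49 in Dox500, 0.51 in Dox750 and 0.41 in Dox1000, arm differences of -0.0562 in Dox500 and 0.35 in Dox750, and 7 calls from Dox500 to Dox750. With detection on all 24 arrays the arm difference was -0.0716 in Dox500, -0.0471 in Dox750 (reversed from 0.21) and 0.00219 in Dox1000, that filter leaving out 3 genes. Without a filter 3 genes were called from Dox100 to Dox250, 2 from Dox500 to Dox750 and 9 from Dox750 to Dox1000, with more probes tested. Of the 50 member calls between resistant lines and the 106 partner calls against Ramos, median scaling ended 7 and 17, centring 4 and 12, no filter 16 and 21, the mean over probes 3 and 5, and an adjusted p under 0.01 19 and 33, while no background correction and the deposited values ended 0. The mean over probes turned SMC2 in Dox250 to 0.0536 and SPTLC1 to 0.0728, 0.0571 and 0.082 in Dox250, Dox500 and Dox750, with none called. At an adjusted p under 0.01 the 4 steps gave 1, 3, 2 and 9 calls, and 17 partners were called in Dox1000 where 32 were at 0.05. Where no construction is named, the cause was not tested.

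Leaving out 1 array gave member medians of 0.44 to 0.48 in Dox500 and 0.43 to 0.50 in Dox750, and arm differences of -0.0296 to 0.0682 in Dox100, -0.0112 to 0.13 in Dox250, -0.026 to 0.119 in Dox500 (without Dox500 replicates 1 and 4), 0.16 to 0.28 in Dox750 and 0.063 to 0.20 in Dox1000, the lowest of Dox100 and Dox250 without Ramos replicate 2 and the highest without Ramos replicate 4. Calls ran from 3 to 7, 3 to 6, 2 to 5 and 10 to 19 over the 4 steps. The replicate block left the medians as they were, gave 5, 5, 3 and 14 calls over the 4 steps and 18 from Dox100 to Dox1000, took the lower calls from Dox500 to Dox750 from 2 to 1, and moved no other member or partner count by over 1.5 times. It ended 6 of 50 member calls and 3 of 106 partner calls. Same-numbered arrays of different lines correlated at -0.24 to 0.18 over 60 pairs, and 7 of 24 arrays were closest to their own number, so the numbers do not pair the arrays.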
